A study of Mus musculus with 6 samples.

Results

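Myeloid cells are the phagocytes of blood and tissue, and 43 genes that they share were followed here in mouse liver. The set holds adhesion receptors, Fc receptors and their adaptors, subunits of the phagocyte oxidase, Toll-like receptors with their partners, C-type lectins, scavenger receptors, inhibitory receptors and surface proteins of leukocytes. Its members are all probe sets that the platform annotation names with exactly 1 symbol among the 43. This gave 61 probe sets for 42 genes, of 22626 probe sets and 12393 named genes analysed on the array. Lyn was not analysed here because no probe set is named for it, and 3 probe sets that name Pirb together with other genes were left out. The members are genes of myeloid cells at large, and some are not theirs alone, with several of them (Ptprc, Cd53, Cd52, Cd48, Coro1a) also carried by lymphocytes, and Fcgr2b also by sinusoidal endothelium.

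The mice were males of KK/H1J, an inbred strain that turns obese and diabetic, in 2 groups of 3. The BPD group (mice 23, 28 and 36) had received Ad-BPD, a virus expressing PFK-2 without bisphosphatase activity, an enzyme that in its full form makes and breaks down the glycolytic activator fructose-2,6-bisphosphate, and the GFP group (mice 22, 29 and 31) had received Ad-GFP. Both viruses were given through the tail vein at the same stated dose, so the control livers carry an adenovirus too. The mice were 12 to 14 weeks old, weighed about 35 g, were fed freely and were killed at day 7. RNA of each whole liver piece was hybridised to 1 one-colour array, and the deposited MAS5 signal intensities are the values given below for single livers. In such bulk RNA, more cells of a type and more RNA per cell cannot be told apart.

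Phagocytes take up particles through surface receptors. Integrins of the beta-2 class hold them to vessel walls and to complement-coated targets, Fc receptors bind antibody and signal through adaptors with an immunoreceptor tyrosine-based activation motif (ITAM), and C-type lectins and Toll-like receptors bind sugars, lipids and nucleic acids of microbes. The NADPH oxidase then makes superoxide at the membrane around the particle. In liver these genes are carried by resident Kupffer cells and by monocytes, dendritic cells and neutrophils that enter from blood.

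The myeloid genes were higher in BPD livers, broadly across roles. Over the 42 genes with a probe set the median log2 difference between BPD and GFP livers was 1.22, against -0.23 over all 12393 genes. Of the 42 members, 30 had all BPD livers above all GFP livers after each array was centred on its median, and 0 had all BPD livers below (11.3% and 32.0% of all genes). Fitted without a filter on dim probe sets, 22 of the 42 rose and 0 fell at an adjusted p under 0.05 (limma, Benjamini-Hochberg), where 5.70% of all genes rose and 12.7% fell. With the filter, which keeps probe sets with a mean signal above about 98.8, 38 members were tested, 30 of these rose and 0 fell (33 had an unadjusted p under 0.05), where 8.75% of 8151 genes rose and 22.1% fell. Adjusted p-values below come from this filtered fit, and 4 dim members (Itgam, Ncf1, Tlr7 and Clec4d) have none. Tlr4, Pirb and Cd48 had mean signals under 98.8 in GFP livers and entered the filtered fit through their BPD livers.

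The lead of the members over all genes was similar after quantile normalization. Members lay 1.45 above all genes on the log2 scale after centring and 1.497 after quantile normalization. Centring shifts all genes of an array alike, so the lead of 1.45 under deposited scaling is the same by construction. With centring, deposited scaling and quantile normalization the median of all genes itself was -0.23, 0.07 and -0.07. A difference above 0 was seen in 39, 42 and 41 of the 42 members. The number of calls varied with the mouse left out, among the members and among all genes. It was 15 without BPD mouse 28, where 4.94% of all genes were called higher, and 16 without BPD mouse 23, where 5.56% were. It was 19 without GFP mouse 22 (7.20% of all genes) and 20 without GFP mouse 31 (6.26%), but 31 without BPD mouse 36 (9.81%) and 31 without GFP mouse 29 (8.02%). The 15 genes called higher in every alternative fit run on them were Itgb2, Coro1a, Fcer1g, Cyba, Ncf4, Cd14, Clec7a, Msr1, Cd68, Spi1, Lyz2, Aif1, Ptprc, Cd52 and Laptm5.

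**Figure D1:**
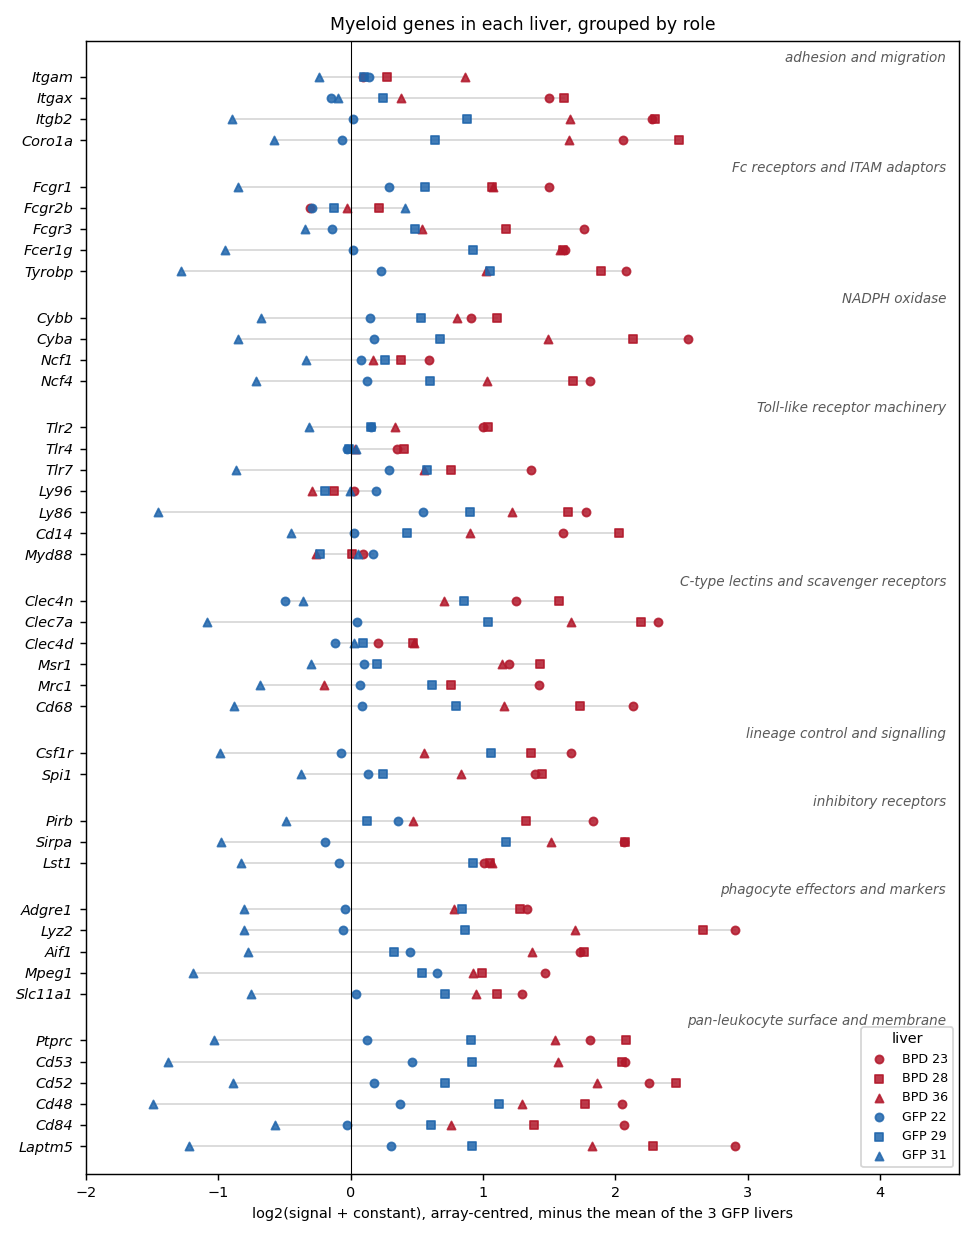
Each row is 1 myeloid gene, and each point 1 liver (red BPD, blue GFP), placed on the x axis by its log2 value after centring minus the mean of the 3 GFP livers. BPD livers 23 and 28 lie to the right in most rows, GFP liver 31 is the leftmost of 6 livers in 35 of 42 genes, and Fcgr2b, Ly96 and Myd88 stay near 0.

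The members moved together from liver to liver, also within each group. GFP liver 31 was the lowest GFP liver in 35 of the 42 members, against 29.7% of all genes. GFP liver 29 was the highest GFP liver in 33 members, against 20.6% of all genes, and BPD liver 36 was the lowest BPD liver in 37, against 30.9% of all genes. Relative to all genes, the median member stood at 1.81, 1.69 and 1.13 in BPD livers 23, 28 and 36, and at 0.04, 0.68 and -0.79 in GFP livers 22, 29 and 31. The groups did not overlap on this log2 scale.

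**Figure D2:**
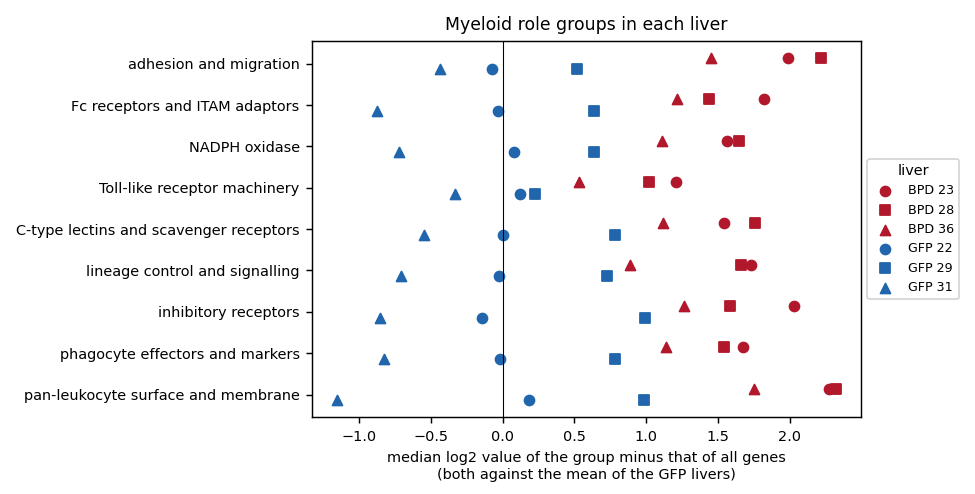
Each row is a role group, each point 1 liver, and the x axis is the median log2 value of the group's genes minus that of all genes, both against the mean of the GFP livers. In every row the BPD livers (red) lie to the right of the GFP livers (blue), with the smallest gap, from BPD liver 36 at 0.88 to GFP liver 29 at 0.73, for the lineage control genes.

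PU.1, the product of Spi1, is the transcription factor that sets up the myeloid programme, and the receptor of colony-stimulating factor 1, the product of Csf1r, keeps macrophages alive. Spi1 had signals of 545, 636 and 370.1 in BPD livers, against 170.0, 215 and 121 in GFP livers. Its lowest BPD liver exceeded its highest GFP liver, and Spi1 rose by 1.22 ± 0.23 on the log2 scale (SE, adjusted p = 0.0049). Csf1r had signals of 7542, 6845 and 3519.8 in BPD livers, against 1784, 4517 and 986 in GFP livers. GFP liver 29 exceeded BPD liver 36, and the difference of 1.19 ± 0.46 did not pass (adjusted p = 0.080), although it did without GFP mouse 29 (1.73, adjusted p = 0.011) or BPD mouse 36 (1.52, adjusted p = 0.042) and with quantile normalization (1.62, adjusted p = 0.049). Of the other Csf1r probe sets 1 rose (1.10 ± 0.36, adjusted p = 0.048) and 1 did not pass (1.29 ± 0.55, adjusted p = 0.11).

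The promoters of the members were searched for GAGGAA, 1 form of the core of the PU.1 site, on both strands. RefSeq promoters (build GRCm38.p6) were found for 27 of the 43 members, with 31 entries, and the 250 bases before the start were read. The core stood in 15 of the 31 entries (48.4%), of 13 genes, against 23.3% of all 32851 promoters of that length. The RUNX core TGTGGT was in 16.1% of the members' entries and 14.0% of all promoters, and the TATA box TATAAA in 9.68% and 12.4%. These shares describe letters in a window and are not binding. They depend on which genes are listed and not on the signals, and whether PU.1 had a part in the rises was not tested. Shown are the called members with the smallest p that have an entry, taken in order of p: Coro1a at chr7:126704817-126705066, Lyz2 at chr10:117282273-117282522 and Cyba at chr8:122432941-122433190. Other forms of the core were not searched, and none of these windows holds GAGGAA, whose absence there says nothing of the factor. They are followed by the next called members, in order of p, whose window does hold it, added after the search: Aif1 at chr17:35176053-35176302, Laptm5 at chr4:130913066-130913315 and Clec7a at chr6:129472780-129473029. Laptm5 lies on the plus strand and the others on the minus strand. Capitals mark GAGGAA or its reverse complement TTCCTC, which lies 7, 38 and 96 bases before the start in Aif1, Laptm5 and Clec7a.
Coro1a: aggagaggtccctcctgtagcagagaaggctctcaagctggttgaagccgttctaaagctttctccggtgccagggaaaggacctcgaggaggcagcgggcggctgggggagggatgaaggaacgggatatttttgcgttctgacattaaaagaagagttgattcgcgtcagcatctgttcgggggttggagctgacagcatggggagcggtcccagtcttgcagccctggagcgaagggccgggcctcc
Lyz2: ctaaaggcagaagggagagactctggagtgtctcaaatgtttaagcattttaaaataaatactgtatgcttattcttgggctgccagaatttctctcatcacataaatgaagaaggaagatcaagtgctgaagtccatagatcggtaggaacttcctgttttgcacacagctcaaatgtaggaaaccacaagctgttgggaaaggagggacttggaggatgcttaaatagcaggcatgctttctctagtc
Cyba: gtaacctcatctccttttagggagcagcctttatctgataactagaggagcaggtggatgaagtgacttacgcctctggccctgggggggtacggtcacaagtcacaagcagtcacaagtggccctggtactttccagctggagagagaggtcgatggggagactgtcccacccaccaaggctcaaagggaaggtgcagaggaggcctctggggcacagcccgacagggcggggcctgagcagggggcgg
Aif1: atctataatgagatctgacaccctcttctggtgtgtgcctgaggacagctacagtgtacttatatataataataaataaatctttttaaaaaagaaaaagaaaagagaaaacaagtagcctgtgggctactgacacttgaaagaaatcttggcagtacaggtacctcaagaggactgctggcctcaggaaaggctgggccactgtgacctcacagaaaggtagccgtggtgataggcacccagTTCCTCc
Laptm5: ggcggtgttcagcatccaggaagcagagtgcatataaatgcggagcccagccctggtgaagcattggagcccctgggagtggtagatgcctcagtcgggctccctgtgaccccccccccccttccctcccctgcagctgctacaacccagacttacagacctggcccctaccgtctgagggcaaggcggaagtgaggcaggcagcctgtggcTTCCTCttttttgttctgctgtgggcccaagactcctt
Clec7a: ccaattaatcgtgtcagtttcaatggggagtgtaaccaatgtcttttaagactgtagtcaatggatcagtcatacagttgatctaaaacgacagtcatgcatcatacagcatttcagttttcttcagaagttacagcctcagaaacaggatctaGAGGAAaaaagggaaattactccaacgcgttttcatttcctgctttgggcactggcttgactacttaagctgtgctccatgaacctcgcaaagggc

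Among the adhesion genes Itgb2 and Coro1a rose by more than the median member, and Itgax by slightly less. Itgb2 encodes CD18, the common beta chain of the leukocyte integrins, and Itgam and Itgax encode the alpha chains CD11b and CD11c that pair with it. Coro1a encodes coronin 1A, an actin regulator of leukocytes. Of these 4 genes 3 rose and the fourth, Itgam, was too dim to be tested in the filtered fit. Itgb2 had signals of 1371, 1563 and 899.8 in BPD livers, against 215, 463 and 113 in GFP livers, a rise of 2.08 ± 0.39 (4.22-fold, adjusted p = 0.0048). Coro1a had 758, 1142 and 573 in BPD livers, against 125, 247 and 87.6 in GFP livers, and rose by 2.06 ± 0.31 (adjusted p = 0.0020). In both genes every BPD liver lay above every GFP liver, and a further probe set of Coro1a rose by 2.11 ± 0.37. Itgax had 388, 472 and 172 in BPD livers, against 86.0, 138 and 95.1 in GFP livers, and rose by 1.17 ± 0.31 (adjusted p = 0.022). BPD liver 36 stood close above GFP liver 29, and the call was lost without BPD mouse 23 or 28 or GFP mouse 22 or 31 (adjusted p of 0.075, 0.099, 0.068 and 0.053). Itgam had 43.2, 59.7 and 87.0 in BPD livers, against 32.7, 38.5 and 23.3 in GFP livers, a log2 difference of 0.41 ± 0.28 that did not pass without the filter (adjusted p = 0.33). Here the order of the BPD livers differed from that of the other adhesion genes, with liver 36 highest.

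Partners of these integrins were read from a list of 20 further adhesion genes. Of the 13 bright enough 7 rose and 0 fell, where 8.75% of all genes rose and 22.1% fell. Icam1, the endothelial ligand of the beta-2 integrins, rose by 1.77 ± 0.26 (adjusted p = 0.0018), with signals of 1082, 1261 and 679 in BPD livers, against 231, 302 and 151 in GFP livers. Selplg, the P-selectin ligand of leukocytes, rose by 1.21 ± 0.20, Itga6 by 1.28 ± 0.24 and the GTPase gene Rac2, which serves both migration and the oxidase, by 1.54 ± 0.35. These 4 genes were called higher in every alternative run on them. The other risers, named after their values were seen, were Vcam1, Fermt3 and Itgal, called in 15 of 17, 14 of 17 and 7 of 15 alternatives.

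**Figure D3:**
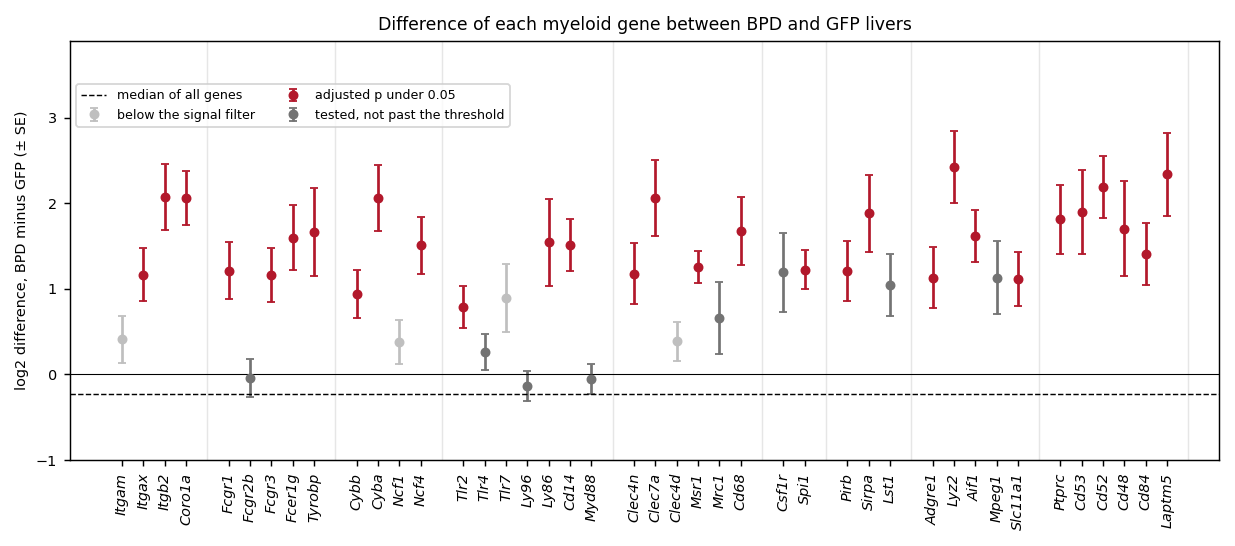
Points show the log2 difference between BPD and GFP livers for each myeloid gene, ordered by role, with the SE of the fit over 3 livers per group as bars. Red points passed the threshold, grey points did not or were too dim, and the dashed line is the median of all genes at -0.23.

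The Fc receptor group divided. The activating receptors rose and the inhibitory receptor Fcgr2b did not. Fcgr1 encodes the high-affinity receptor for IgG, Fcgr3 a low-affinity activating receptor, and Fcer1g the common gamma chain, an ITAM adaptor both need. Fcgr1 had signals of 499, 412 and 373 in BPD livers, against 161, 229 and 68.0 in GFP livers, and rose by 1.21 ± 0.33 (adjusted p = 0.024). Fcgr3 had 947, 702 and 401 in BPD livers, against 188, 345 and 170.3 in GFP livers, and rose by 1.16 ± 0.32 (adjusted p = 0.023). Neither gene overlapped between the groups. Fcer1g had 1119, 1241 and 1103 in BPD livers, against 282, 624 and 144 in GFP livers, and rose by 1.60 ± 0.38 (adjusted p = 0.013). The BPD livers were close to each other here, while the GFP livers spread more than 4-fold.

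Tyrobp encodes DAP12, the ITAM adaptor of many other myeloid receptors. It had signals of 3126, 3068 and 1512 in BPD livers, against 675, 1388 and 239 in GFP livers, and rose by 1.67 ± 0.51 (adjusted p = 0.038). After centring, BPD liver 36 and GFP liver 29 overlapped, and Tyrobp did not pass without the filter (adjusted p = 0.065). Leaving out BPD mouse 23 or 28 took away the calls of Fcgr1 (adjusted p of 0.076 and 0.060), Fcgr3 (0.067 and 0.072) and Tyrobp (0.11 and 0.12). Fcgr3 and Tyrobp also did not pass without GFP mouse 22 (0.073 and 0.074) or GFP mouse 31 (0.069 and 0.066).

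Fcgr2b encodes the only Fc receptor for IgG with an inhibitory motif and is borne by macrophages, B cells and sinusoidal endothelium. Its brightest probe set had signals of 557, 908 and 690.1 in BPD livers, against 446, 578 and 772 in GFP livers, a difference of -0.04 ± 0.22 (adjusted p = 0.91). The groups overlapped on all 4 of its probe sets, whose differences ran from -0.19 to 0.22. Within each liver the log2 value of Fcgr1 minus that of Fcgr2b was higher by 1.25 ± 0.69 in BPD than in GFP livers, without overlap (exact permutation p = 0.10, 2-sided, the smallest that 3 against 3 can give). For Fcgr3 minus Fcgr2b the difference was 1.20 ± 0.60 with overlap (exact permutation p = 0.20). These pairs, with Cd14 against Ly96 and Tlr2 against Myd88, were chosen after their values were seen. Over the 4 the adjusted p was 0.133 to 0.20, an adjustment that does not cover that choice.

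Fcgr2b, Fcgr4 and Fcgr3 are direct neighbours on chromosome 1, and Fcer1g lies 7 protein-coding genes beyond Fcgr3. Fcgr4, an activating receptor outside the member list, rose by 1.48 ± 0.28 (adjusted p = 0.0052), so that Fcgr3, Fcgr4 and Fcer1g were called higher and Fcgr2b was not. To show the pair side by side, the 250 bases before Fcgr3 (chr1:171059404-171059653) and before Fcgr2b (chr1:170976072-170976321) are printed, both on the minus strand of GRCm38.p6. The window of Fcgr3 holds the searched form of the PU.1 core 6 bases before the start, in capitals, and that of Fcgr2b does not hold these letters. The letters do not follow the calls: Fcer1g, called higher, has none in its window, while Mrc1, not called, holds the core at 35 bases and the dim Itgam at 15 bases before the start.
Fcgr3: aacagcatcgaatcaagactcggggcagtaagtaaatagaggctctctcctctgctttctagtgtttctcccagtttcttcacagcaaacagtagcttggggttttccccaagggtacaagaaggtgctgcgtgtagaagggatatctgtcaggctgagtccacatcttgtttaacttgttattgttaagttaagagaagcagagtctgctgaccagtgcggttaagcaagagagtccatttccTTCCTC
Fcgr2b: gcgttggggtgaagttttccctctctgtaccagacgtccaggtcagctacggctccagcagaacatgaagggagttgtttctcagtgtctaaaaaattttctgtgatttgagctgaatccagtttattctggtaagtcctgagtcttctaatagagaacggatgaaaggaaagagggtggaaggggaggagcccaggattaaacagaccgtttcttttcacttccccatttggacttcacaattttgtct

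Kinases and adaptors downstream of the ITAM were higher in part. In a list of 17 further Fc receptor and signalling genes, 11 were bright enough, 4 rose and 1 fell, where 8.75% of all genes rose and 22.1% fell. Syk, the kinase that docks on phosphorylated ITAMs, rose by 1.49 ± 0.36 (adjusted p = 0.015, called in 14 of its 16 alternatives), and Lcp2, an adaptor downstream of it, by 1.08 ± 0.26 (adjusted p = 0.014, called in 15 of 17). The fourth riser was Blnk (0.96 ± 0.29, called in 11 of its 16 alternatives). Fcgrt, the neonatal Fc receptor that recycles IgG and albumin, fell by 0.66 ± 0.20 (adjusted p = 0.035). This call was lost when the deposited scaling (-0.36) or quantile normalization (-0.38) was used.

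All 3 oxidase genes bright enough to test rose. Cybb and Cyba encode gp91phox and p22phox, the membrane pair that carries electrons to oxygen, and Ncf1 and Ncf4 encode the cytosolic subunits p47phox and p40phox. Cyba had signals of 2503, 2093 and 1209 in BPD livers, against 371, 608 and 182 in GFP livers, a rise of 2.06 ± 0.38 (4.17-fold, adjusted p = 0.0047). Cybb had 444, 572 and 415 in BPD livers, against 199, 305 and 112 in GFP livers, and rose by 0.94 ± 0.28 (1.92-fold, adjusted p = 0.033). Ncf4 had 654, 668 and 379 in BPD livers, against 149, 247 and 80.8 in GFP livers, and rose by 1.51 ± 0.33 (adjusted p = 0.0094). Every BPD liver exceeded every GFP liver in all 3. Cybb did not pass without the filter (adjusted p = 0.060), nor without BPD mouse 23 (0.071), BPD mouse 28 (0.11), GFP mouse 22 (0.062) or GFP mouse 31 (0.061). Both probe sets of Ncf1 were below the filter, and they disagreed in size, at 0.38 ± 0.26 and 1.48 ± 0.45. The second had signals of 111, 202 and 99.6 in BPD livers, against 3.29, 60.2 and 36.9 in GFP livers, and an adjusted p of 0.058 without the filter.

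Of 5 tested in a list of 10 further oxidase genes, 0 were called higher and 1 lower, which was also the only one with an unadjusted p under 0.05. Of all genes tested 8.75% were called higher and 22.1% lower, so the counts are no result about the list. Nox4, an oxidase of non-phagocytic cells, had signals of 169, 165 and 229 in BPD livers, against 603, 672 and 394 in GFP livers. It fell by 1.77 ± 0.23 (adjusted p = 0.0010) and did so in each of its 17 alternatives. Rac1, a GTPase of all cells, differed by -0.19 ± 0.14 (adjusted p = 0.32), Rap1a by -0.17 ± 0.15 (adjusted p = 0.42) and Cyb5r4 by -0.27 ± 0.15 (adjusted p = 0.21).

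Toll-like receptor genes were divided. Of 7 genes, 3 rose, 3 were tested and did not pass, and Tlr7 was too dim. Cd14, the co-receptor that hands endotoxin to TLR4, had signals of 786, 1191 and 485 in BPD livers, against 198, 308 and 145 in GFP livers, and rose by 1.51 ± 0.30 (2.85-fold, adjusted p = 0.0067). Ly86, which encodes MD-1, the partner of the TLR4-like receptor CD180, had 769, 781 and 522 in BPD livers, against 249.7, 374 and 53.4 in GFP livers, and rose by 1.55 ± 0.51 (adjusted p = 0.048). Tlr2, the receptor of bacterial lipoproteins, had 268, 311 and 165 in BPD livers, against 109.7, 128 and 79.3 in GFP livers, and rose by 0.79 ± 0.25 (adjusted p = 0.039). None of these 3 overlapped between the groups. Without the filter Ly86 and Tlr2 did not pass (adjusted p of 0.082 and 0.071). With a mouse left out Tlr2 passed only when that was BPD mouse 36, with adjusted p from 0.053 to 0.16 otherwise, and Ly86 only when it was GFP mouse 29 or 31, with 0.053 to 0.13 otherwise.

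The endotoxin receptor gene Tlr4, its partner Ly96 and the adaptor gene Myd88 did not pass. Tlr4 had signals of 140.4, 165 and 111 in BPD livers, against 79.3, 94.7 and 89.3 in GFP livers. These signals did not overlap, but after centring they did, and the difference was 0.26 ± 0.21 (adjusted p = 0.36). A second, dim probe set of Tlr4 had 97.2, 70.3 and 55.9 in BPD livers, against 34.2, 61.9 and 20.2 in GFP livers, which overlapped (0.47 ± 0.32, adjusted p = 0.33 without the filter). Ly96, which encodes MD-2, the endotoxin-binding subunit of the TLR4 complex, had 287, 289 and 229 in BPD livers, against 254, 221 and 231 in GFP livers (-0.13 ± 0.17, adjusted p = 0.60). Myd88, the adaptor of most Toll-like receptors, had 639, 678 and 501 in BPD livers, against 535, 461 and 517 in GFP livers (-0.05 ± 0.18, adjusted p = 0.84). Both overlapped between the groups, and their differences turned positive with the deposited scaling, to 0.17 for Ly96 and 0.25 for Myd88, without passing. Within livers, Cd14 minus Ly96 was higher by 1.64 ± 0.42 in BPD livers and Tlr2 minus Myd88 by 0.85 ± 0.25, both without overlap (exact permutation p = 0.10 each, adjusted p = 0.133). Cd14 was not tested against Tlr4 or Myd88. Tlr7, the receptor of single-stranded RNA, had 168, 119.6 and 90.4 on its brightest probe set in BPD livers, against 53.2, 81.0 and 16.6 in GFP livers (0.89 ± 0.40, adjusted p = 0.16 without the filter). Its other 2 probe sets had signals of at most 50.9 in any liver.

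Among 32 further pattern recognition genes, 17 were bright enough, 2 rose and 4 fell. These shares are near those of all genes tested, of which 8.75% rose and 22.1% fell, so the counts are no result about the list. Pycard, the adaptor of inflammasomes, rose by 1.48 ± 0.25 (adjusted p = 0.0029), and Casp1, the protease it recruits, by 0.91 ± 0.28 (adjusted p = 0.039). Casp1 was called in 8 of its 16 alternatives. Lbp, the plasma protein that delivers endotoxin to CD14 and is made by hepatocytes, fell by 0.81 ± 0.20, the adaptor gene Tirap by 0.64 ± 0.17, the inhibitor gene Tollip by 0.71 ± 0.19 and Tlr5, the flagellin receptor, by 0.69 ± 0.19. With the deposited scaling only Lbp still passed among these 4 (-0.51, adjusted p = 0.038), and with quantile normalization only Tirap and Tlr5 (-0.48 and -0.66, adjusted p of 0.045 and 0.042).

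C-type lectins and scavenger receptors rose in 4 of 6 cases. Clec7a encodes dectin-1, a receptor of fungal beta-glucans with an ITAM-like motif of its own. It had signals of 2189, 2244 and 1399 in BPD livers, against 346, 809.9 and 157 in GFP livers, and rose by 2.06 ± 0.44 (4.17-fold, adjusted p = 0.0091). Cd68, a lysosomal glycoprotein of macrophages, had 1484, 1257 and 758 in BPD livers, against 272, 525 and 139 in GFP livers, and rose by 1.68 ± 0.39 (adjusted p = 0.013). Msr1, the class A scavenger receptor, had 806, 1065 and 785 on its brightest probe set in BPD livers, against 290.3, 359 and 227 in GFP livers, and rose by 1.26 ± 0.18 (adjusted p = 0.0017). In these 3 genes the lowest BPD liver exceeded the highest GFP liver. The 4 probe sets of Msr1 ranged from 0.50 ± 0.28, which did not pass, to 2.18 ± 0.71. Clec4n, which encodes dectin-2, had 417, 591 and 284 in BPD livers, against 86.5, 285 and 102 in GFP livers, and rose by 1.18 ± 0.36 (adjusted p = 0.036). GFP liver 29 reached the level of BPD liver 36. The call of Clec4n was lost without the filter (adjusted p = 0.066), and without BPD mouse 23 (0.088), BPD mouse 28 (0.135), GFP mouse 22 (0.116) or GFP mouse 31 (0.098).

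The 2 others of this group were not called. Mrc1, the mannose receptor CD206, which liver endothelium also carries, had signals of 2004, 1408 and 649 in BPD livers, against 612, 1036 and 375 in GFP livers (0.66 ± 0.42, adjusted p = 0.26). It overlapped between the groups and passed only without BPD mouse 36 (1.09, adjusted p = 0.049). Clec4d, a dim gene, had 55.1, 79.6 and 71.0 in BPD livers, against 29.0, 43.7 and 36.3 in GFP livers (0.39 ± 0.22, adjusted p = 0.26 without the filter). Of 19 further lectins and scavenger receptors 8 were bright enough, 1 rose and 1 fell. Of all genes tested 8.75% rose and 22.1% fell, so these counts are no result about the list. Cd36, a fatty acid and lipoprotein receptor that hepatocytes also express, rose by 1.51 ± 0.27 (adjusted p = 0.0043), and Colec12 fell by 0.71 ± 0.22 (adjusted p = 0.039), though not with the deposited scaling (-0.41). Cd5l, a secreted protein of Kupffer cells (1.45 ± 0.50, adjusted p = 0.054), and Clec4a2 (1.09 ± 0.45, adjusted p = 0.099) did not pass.

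**Figure D4:**
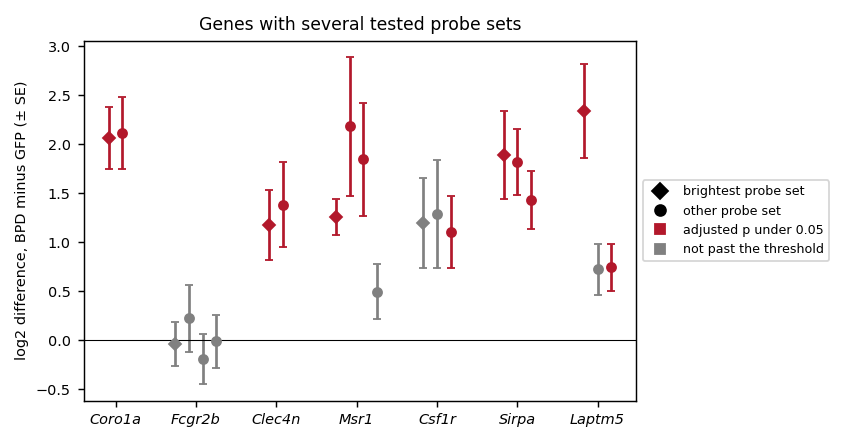
Points show the log2 difference between BPD and GFP livers, with the SE of the fit over 3 livers per group, for each tested probe set of the 7 myeloid genes that have several, with a diamond for the brightest. Probe sets of Coro1a and Sirpa lie close together, those of Fcgr2b lie around 0, and those of Msr1 and Laptm5 differ in size.

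Of 3 genes in the inhibitory receptor group 2 rose with the filter and 1 without it. Sirpa encodes the receptor of the CD47 signal that restrains engulfment, and Pirb a receptor of MHC class I. Sirpa had signals of 2499, 2808 and 1722 in BPD livers, against 402, 1216 and 237 in GFP livers, and rose by 1.89 ± 0.45 (3.70-fold, adjusted p = 0.014), with the other 2 probe sets at 1.43 ± 0.30 and 1.82 ± 0.34. It missed the threshold without BPD mouse 28 (adjusted p = 0.053). Pirb had 409, 319.7 and 152 in BPD livers, against 106, 103 and 55.1 in GFP livers, and rose by 1.21 ± 0.35 (adjusted p = 0.030). This gene has near-identical Pira copies, so its signal may not be its own, and the call was lost without the filter (adjusted p = 0.058), BPD mouse 23 (0.099), BPD mouse 28 (0.10) or GFP mouse 31 (0.083). Lst1, a small leukocyte membrane protein, had 378, 439 and 402 in BPD livers, against 130.5, 323 and 76.0 in GFP livers (1.04 ± 0.36, adjusted p = 0.057). Its BPD livers were all above its GFP livers, and it passed with the deposited scaling (1.34, adjusted p = 0.042) and without GFP mouse 29 (1.503, adjusted p = 0.0045).

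Phagocyte effectors and markers rose in 4 of 5 cases. The largest difference among all 42 members was that of Lyz2, the lysozyme of macrophages and granulocytes. It had signals of 7728, 7322 and 3382 in BPD livers, against 772, 1696 and 479 in GFP livers, and rose by 2.42 ± 0.42 (5.36-fold, adjusted p = 0.0034). Lyz2 has a close copy, Lyz1, which the probes may also bind. Aif1, a calcium-binding protein of macrophages, had 566, 649.9 and 441 in BPD livers, against 174, 184 and 69.0 in GFP livers, and rose by 1.62 ± 0.30 (adjusted p = 0.0049). In both genes the groups stood well apart. Adgre1, the F4/80 antigen of mouse macrophages, had 1449.8, 1572 and 995 in BPD livers, against 435, 935 and 263 in GFP livers, and rose by 1.13 ± 0.36 (adjusted p = 0.042). Slc11a1, a metal transporter of the phagosome, had 882, 867 and 699.5 in BPD livers, against 283, 531 and 165 in GFP livers, and rose by 1.12 ± 0.32 (adjusted p = 0.028). After centring, BPD liver 36 fell below GFP liver 29 for Adgre1 but not for Slc11a1. Both calls were lost without BPD mouse 23 (adjusted p of 0.11 and 0.079), BPD mouse 28 (0.13 and 0.080), GFP mouse 22 (0.10 and 0.068) or GFP mouse 31 (0.10 and 0.055), and Adgre1 without the filter (0.069). Mpeg1, the pore-forming protein of macrophages, had 5291, 4258 and 3655 in BPD livers, against 2381, 2513 and 684 in GFP livers (1.13 ± 0.43, adjusted p = 0.074). Its groups did not overlap, and it passed with the deposited scaling (1.43, adjusted p = 0.0455) and quantile normalization (1.54, adjusted p = 0.033).

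Of 6 surface and membrane genes shared by leukocytes, 5 rose in the fit without the filter. The other, Cd48, passed only in the filtered fit, which it entered through its BPD livers. Ptprc encodes CD45, the phosphatase of all nucleated blood cells. It had signals of 1420.0, 1919 and 1196 in BPD livers, against 339, 685 and 151 in GFP livers, and rose by 1.81 ± 0.41 (3.51-fold, adjusted p = 0.011). Cd52, a small anchored glycoprotein, had 1597, 2073 and 1232 in BPD livers, against 289, 490.3 and 136 in GFP livers, and rose by 2.19 ± 0.36 (4.57-fold, adjusted p = 0.0027). Cd53, a tetraspanin, had 1342, 1482 and 955 in BPD livers, against 338, 541 and 87.5 in GFP livers, and rose by 1.90 ± 0.49 (adjusted p = 0.019). GFP liver 29 was the highest of the GFP livers in each of these genes and still below every BPD liver. Cd48 and Cd84 are adhesion receptors of the SLAM family, with 2 protein-coding genes between them on chromosome 1. Cd48 had 409.6, 377 and 240.4 in BPD livers, against 90.1, 188 and 14.3 in GFP livers, and rose by 1.71 ± 0.55 (adjusted p = 0.045). Cd84 had 718, 498 and 285 in BPD livers, against 120.3, 226 and 82.1 in GFP livers, and rose by 1.41 ± 0.36 (adjusted p = 0.019). Neither passed when mouse 23 or 28 (BPD) or 22 (GFP) was left out (adjusted p from 0.056 to 0.12), nor did Cd84 without GFP mouse 31 (0.053) or Cd48 without the filter (0.079). Cd53 did not pass without BPD mouse 23 (0.057) or 28 (0.066).

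Laptm5, a lysosomal membrane protein of blood cells, gave the least certain size. Its brightest probe set, of a kind that can match several transcripts, had signals of 1815, 1313 and 859 in BPD livers, against 224, 403 and 71.2 in GFP livers, a rise of 2.34 ± 0.48 (adjusted p = 0.0075). The other 2 probe sets, also of such a kind, were at 0.74 ± 0.24 (adjusted p = 0.046) and 0.72 ± 0.26 (adjusted p = 0.064). The mean of its probe sets rose by 1.27 ± 0.28 (adjusted p = 0.010).

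Set side by side, the 4 groups of adhesion, Fc receptor, oxidase and Toll-like receptor genes each had a median above that of all genes. Over all their members with a probe set, dim ones included, the median log2 difference was 1.61 for the 4 adhesion genes, 1.21 for the 5 Fc receptor and adaptor genes, 1.22 for the 4 oxidase genes and 0.79 for the 7 Toll-like receptor genes, against -0.23 for all genes. Each group held a member that did not pass or was too dim. Whether the groups differ from one another was not tested.

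Markers of particular cell types moved alongside and are given as measured, with sums over deposited signals, and their part in the rises above was not tested. Their counts of calls stand beside the shares of all genes tested, of which 8.75% rose and 22.1% fell. Of 10 Kupffer cell markers bright enough, the complement genes C1qa (1.62 ± 0.43), C1qb and C1qc and the folate receptor gene Folr2 (1.03 ± 0.30) rose and 0 fell. These 4 calls were less firm, C1qa passing in 13 and Folr2 in 11 of 17 alternatives. The more specific Kupffer cell markers Clec4f and Vsig4 differed by -0.58 ± 0.58 and 0.48 ± 0.58 without passing, and BPD liver 36 had the lowest signal of all in both (112 and 259). The summed signal of the 12 Kupffer cell markers with a probe set was 19564 to 37170 in BPD livers and 9963 to 20021 in GFP livers. Of lipid-laden macrophage markers 5 of 8 tested rose, with the smallest p for Lpl (2.20 ± 0.37) and Gpnmb (3.08 ± 0.53). The other 3, Fabp5 (-0.48 ± 0.20, adjusted p = 0.10), Ctsb (-0.08 ± 0.13) and Ctsd (0.34 ± 0.19), did not pass. The sums of this list were 27629 to 37996 in BPD livers and 18494 to 21048 in GFP livers. Trem2 was dim, with at most 32.7 in any liver. Neutrophil markers rose in 6 of 10 cases, with the smallest p for S100a8 (3.91 ± 0.51) and S100a9 (3.86 ± 0.61), with sums of 10322 to 20534 in BPD livers and 1796 to 4138 in GFP livers. A large part of this sum was Lcn2, which hepatocytes also make, with 12421, 11298 and 7796 in BPD livers, against 3264, 2043 and 787 in GFP livers. Mmp9 (-0.12 ± 0.21, adjusted p = 0.67) and the dim Cxcr2 (-0.58 ± 0.39) and Elane (0.42 ± 0.28) overlapped between the groups. BPD liver 36 had the lowest signal of the BPD livers for all neutrophil markers with a probe set except Csf3r and Cxcr2. It had 648 for S100a8, against 2661 and 3162 in the other BPD livers, and 245 for Ngp, against 1467 and 1697. In GFP livers Ngp had 152 to 167.

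Of all genes tested 8.75% rose and 22.1% fell. Of 6 lymphocyte markers tested 1 rose, Cd3g (0.93 ± 0.29, called in 10 of 16 alternatives), and 0 fell. Nkg7 (1.37 ± 0.46, adjusted p = 0.051) did not pass, nor did Prf1 (-0.62 ± 0.25, adjusted p = 0.087), named after its value was seen. After centring, 3 of the 15 lymphocyte genes had all BPD livers above all GFP livers and 3 all below (11.3% and 32.0% of all genes). The 15 genes summed to 1849 to 2607 in BPD livers and 1045 to 1788 in GFP livers. Genes of dividing cells rose in 12 of 12 cases, with the smallest p for Top2a (2.61 ± 0.23) and Mcm5 (2.00 ± 0.18) and the largest difference for Mcm6 (4.18 ± 0.42), and summed to 11607 to 14178 in BPD livers and 1618 to 2590 in GFP livers. The sum of BPD liver 36 (11607) lay close to that of BPD liver 23 (11973), but single genes differed. BPD liver 36 was the lowest BPD liver for Top2a (682, against 891 and 1079) and the highest for Mcm5 (448, against 369 and 396). Stellate cell markers rose in 3 of 12 cases, with the smallest p for Col1a1 (3.39 ± 0.64) and Col3a1 (2.86 ± 0.58). The other 9 did not pass, among them Lrat (-0.28 ± 0.30), Dcn (-0.12 ± 0.29) and Rgs5 (0.03 ± 0.23), named after their values were seen. The stellate markers summed to 5473 in BPD liver 36, against 18053 and 20231 in the other BPD livers and 5408 to 6534 in GFP livers. Endothelial markers were called in both directions once each among 10, Lyve1 (1.69 ± 0.36) higher and Kdr (-0.62 ± 0.20) lower. Near or below the shares of all genes, these 2 counts are no result about the list. The endothelial markers summed to 3254 to 4659 in BPD livers and 2579 to 3860 in GFP livers. Hepatocyte markers fell in 13 of 14 cases, with the smallest p for Hpd (-1.53 ± 0.14) and Cps1 (-0.96 ± 0.12), with 148244 to 166052 in BPD livers and 217289 to 227104 in GFP livers. Lyve1 was called in all 16 alternatives run on it, but Kdr not with the deposited scaling (-0.31) or quantile normalization (-0.49). Of the 13 hepatocyte genes that fell, only Cps1, Otc, Hpd and Asgr1 stayed called with quantile normalization, where Alb and Ahsg turned to 0.09 and 0.03. With the deposited scaling Alb, Ttr, Tat and Ahsg were not called.

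Median signals were 174 to 197 in BPD and 135 to 157 in GFP livers, and the ratio of 3' to 5' signal of the Gapdh control was 0.735 to 0.863 in BPD and 0.785 to 0.9003 in GFP livers. The highest ratios were those of BPD liver 23 and GFP liver 31. With this ratio as a covariate 19 members were called higher, where 6.82% of all genes were.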

How the data were processed

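Total liver RNA of 6 mice, 3 BPD and 3 GFP, was hybridised to 1 array each, and per the study's design each mouse was processed separately. The deposited values are MAS5 signal intensities per probe set, per the submitters' processing notes, which name no version or build. The authors' values had the same mean on each array (499.9, with 2% trimmed at each end). Of 22690 probe sets 64 controls were left out, and 20380 have 1 gene symbol, 691 several and 1555 none. Here 16.2701, 10% of the median of all values, was added, log2 taken and each array centred on its median. The 13575 probe sets with a mean above the 40th percentile (signal 98.8) were fitted with limma 3.58.1 in R 4.3.3 (lmFit, eBayes with a trend), BPD minus GFP, with Benjamini-Hochberg adjustment and a threshold of 0.05. The brightest kept probe set stood for a gene (8151 genes). A log2 difference on this scale understates changes of dim genes. The number of arrays limits the precision, and errors are SE from the fit unless named.

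Values per liver are given for adhesion, Fc receptor, oxidase and Toll-like receptor members and every member past the threshold, with up to 4 genes of each pathway list and up to 2 of each marker list by smallest p, plus those said to be chosen otherwise. The members and lists were chosen with earlier results of these data known. Alternatives were 2 other scalings, 2 other filters, 2 other constants, robust and weighted fits, a Gapdh 3'/5' covariate, other probe set rules and leaving out each mouse. No scan date or batch was used.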

Additional observations from a re-analysis of the deposited data

How the results depend on the processing

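Of the 30 members called higher, 0 reversed under any alternative run, and 15 stayed called in every one. The count of members called was 22 to 32 under the other scalings, filters, constants, weights and probe set rules. In these fits 5.70% to 17.2% of all genes were called higher. The count was 19 with the Gapdh 3'/5' covariate (6.82% of all genes), and 15 to 31 when 1 mouse was left out (4.94% to 9.81%). Cd48, Ly86 and Clec4n also lost their calls with quantile normalization (adjusted p of 0.068, 0.059 and 0.053). Over all genes 2518 were called, and 1328 to 2566 with 1 mouse left out. Of all calls 71.7% were lower in BPD livers, against 39.1% under deposited scaling and 50.5% after quantile normalization. In the further pathway lists 14 genes were called higher, where 8.75% of all genes were. With the deposited scaling 25 were (17.2% of all genes), and with the stricter filter 9 (7.71%). With 1 mouse left out the count was 7 to 17 (4.94% to 9.81% of all genes). It was 7 when BPD mouse 28 and 9 when BPD mouse 23 or GFP mouse 22 was missing. Among members near 0 the sign changed without passing: Fcgr2b stood at 0.26 with the deposited scaling, 0.13 with quantile normalization, 0.070 with array weights, and at -0.18 to 0.17 with 1 mouse left out (0.10 without BPD mouse 23). Ly96 stood at 0.17 with the deposited scaling, and Myd88 at 0.25 with that scaling, 0.10 with quantile normalization, 0.0019 with the covariate, and -0.17 to 0.054 with 1 mouse left out. The cause of these changes was not tested. No paired analysis was possible because the mouse numbers of the groups are not shared. Dim probe sets limit what can be said of Itgam, Ncf1, Tlr7 and Clec4d.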

Other observations

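Among further genes below the signal filter, 3 chosen after their values were seen stood apart in the fit without it. Btk, a kinase downstream of immune receptors, had signals of 168, 227 and 159.8 in BPD livers, against 48.9, 46.1 and 17.05 in GFP livers (1.65 ± 0.30, adjusted p = 0.0094). Vav1, an exchange factor of blood cells, had 161, 114 and 64.5 in BPD livers, against 1.32, 35.8 and 13.3 in GFP livers (1.73 ± 0.41, adjusted p = 0.024). Cd3e, a chain of the T cell receptor complex, had 78.8, 94.3 and 114 in BPD livers, against 15.4, 29.7 and 19.9 in GFP livers (1.26 ± 0.24, adjusted p = 0.011). In Cd3e BPD liver 36 was the highest of 6, unlike in most myeloid genes.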
